A study of Mus musculus with 18 samples.

Results

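The sites described here were the cytosines of WRC motifs and the guanines of GYW motifs in VH186.2, the heavy chain variable segment (IGHV1-72*01, gene Ighv1-72) that dominates the mouse antibody response to the hapten NP. W stands for A or T, R for A or G and Y for C or T, and GYW is WRC read on the opposite strand. Membership was the mark given to each position in the deposited mutation lists, which does not depend on how often a position was mutated. There were 19 such positions, 11 C positions of WRC and 8 G positions of GYW, among the 276 nucleotides of the lists. The 24 positions of WGCW, in which both strands carry the motif at adjoining bases, are marked separately and were not counted here. The lists came from spleen cDNA of 18 C57BL/6 mice, taken 10 days after a single immunization with NP-CGG on alum, and hold 7 Exo1+/+ (wild type), 8 Exo1DA/DA and 3 Exo1-/- mice. Exo1DA/DA mice carry a knock-in allele whose EXO1 protein is made but lacks nuclease activity, whereas Exo1-/- mice make no EXO1. No other allele or treatment differed between the groups in the labels, and since the lists hold VH186.2 alone, the tissue could not be checked against marker genes.

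Activation-induced deaminase (AID) starts somatic hypermutation by turning cytosine into uracil in single-stranded DNA, and it prefers cytosines in WRC. Replication over the uracil gives a C-to-T transition, while removal of the uracil by the glycosylase UNG leaves an abasic site at which translesion polymerases also insert other bases. A deaminated C on the strand that the lists do not show appears as a mutated G, so that WRC and GYW report on opposite strands. Mismatch repair can also process the U:G pair, and in it EXO1 opens the gap in which polymerase eta adds mutations at A:T pairs.

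The germline sequence of VH186.2 from nucleotide 19 to nucleotide 294 (coding strand, counted without gaps, so that nucleotide and codon numbers differ from the gapped IMGT numbering), rebuilt from the germline bases in the lists, is shown first because it places all members in the gene. Capitals mark the WRC and GYW triplets of the 19 positions, and adjoining or overlapping triplets appear as a single run of capitals.
VH186.2: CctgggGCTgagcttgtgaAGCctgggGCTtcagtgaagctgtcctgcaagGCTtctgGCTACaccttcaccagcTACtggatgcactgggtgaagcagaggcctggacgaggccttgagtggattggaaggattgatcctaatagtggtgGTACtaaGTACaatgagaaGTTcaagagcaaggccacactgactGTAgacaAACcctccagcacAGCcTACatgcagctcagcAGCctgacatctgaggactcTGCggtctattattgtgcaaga

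The letters matched the motif at 18 positions, and at nucleotide 19 the bases before the C lie outside the lists. The C positions were nucleotides 19 and 40 in framework 1, 81 and 96 in CDR1, 173 in CDR2, and 180, 223, 236, 240, 255 and 275 in framework 3. The G positions were nucleotides 25, 46 and 70 in framework 1, 77 in CDR1, 170 in CDR2, and 177, 189 and 214 in framework 3. CDRs are the antigen-binding loops and frameworks the scaffold between them. Of the 11 C positions, 4 (nucleotides 81, 96, 180 and 240) were the third base of a TAC codon, at which the transition is silent and both transversions make a stop codon. In all, 8 of the 22 possible transversions at C positions gave a stop codon, against 0 of 16 at G positions. Transitions were silent at 5 of 11 C positions and at 2 of 8 G positions.

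Clones were counted as the weighted number of mutated CDR3 clones per draw, of which the lists held 911.0 in the Exo1+/+ group, 617.9 in the Exo1DA/DA group and 410.7 in the Exo1-/- group, with 21.0 to 323.9 in a mouse. The lists number the mice 284 to 303, and these numbers are not tied to the mouse numbers in the labels. Clones of a mouse were not independent of each other. When sequences of a mouse with much the same mutations were joined into lineages, 570.1 units remained in the Exo1+/+ group, 239.0 in the Exo1DA/DA group and 164.0 in the Exo1-/- group, and Exo1DA/DA mouse 301 came down from 108.0 clones to 3.00 units. Sequences with nearly the same mutations also occurred in different mice, and they made up 20.1% of the clones of the Exo1+/+ group, 43.1% of the Exo1DA/DA group and 25.7% of the Exo1-/- group. Values with each lineage counted 1 time or with the shared sequences removed are given for a part of the results. All other values count clones, and their size can depend on a few lineages.

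The 19 positions together carried 675.6 mutations per draw in the Exo1+/+ group, 892.1 in the Exo1DA/DA group and 443.9 in the Exo1-/- group. A mean of 38.6% of the mutated clones of an Exo1+/+ mouse had at least 1 of these positions changed (SD 15.6, n = 7), compared with 74.1% in Exo1DA/DA (SD 18.9, n = 8) and 41.7% in Exo1-/- mice (SD 32.4, n = 3). The lowest, median and highest mouse had 7.26%, 42.8% and 55.4% in Exo1+/+ and 41.6%, 76.2% and 98.1% in Exo1DA/DA, and the 3 Exo1-/- mice had 43.8%, 73.0% and 8.35%. The groups overlapped. Of the mutations at all G:C positions, the 19 positions took a mean of 20.0% in the Exo1+/+ group, 24.6% in the Exo1DA/DA group and 16.5% in the Exo1-/- group. These values over all members are a description without a test.

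Guanines were mutated more often than cytosines in most mice. Mutation frequency is given as mutations per 1000 potential mutations, that is, over clones times sites times 3 possible base changes. At G positions it was 18.9 ± 9.24 in the Exo1+/+ group (SD, n = 7), 31.5 ± 18.8 in the Exo1DA/DA group (SD, n = 8) and 22.7 ± 23.5 in the Exo1-/- group (SD, n = 3). At C positions it was 8.50 ± 4.82, 16.6 ± 8.51 and 9.11 ± 7.93 in the same order. The C positions lay below the G positions in 14 of 18 mice. These were 7 of the 7 Exo1+/+ mice, 5 of the 8 Exo1DA/DA mice and 2 of the 3 Exo1-/- mice. Exo1DA/DA mouse 297 had the highest ratio of C to G frequency (1.91) and Exo1DA/DA mouse 298 the lowest (0.0367).

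**Figure D1:**
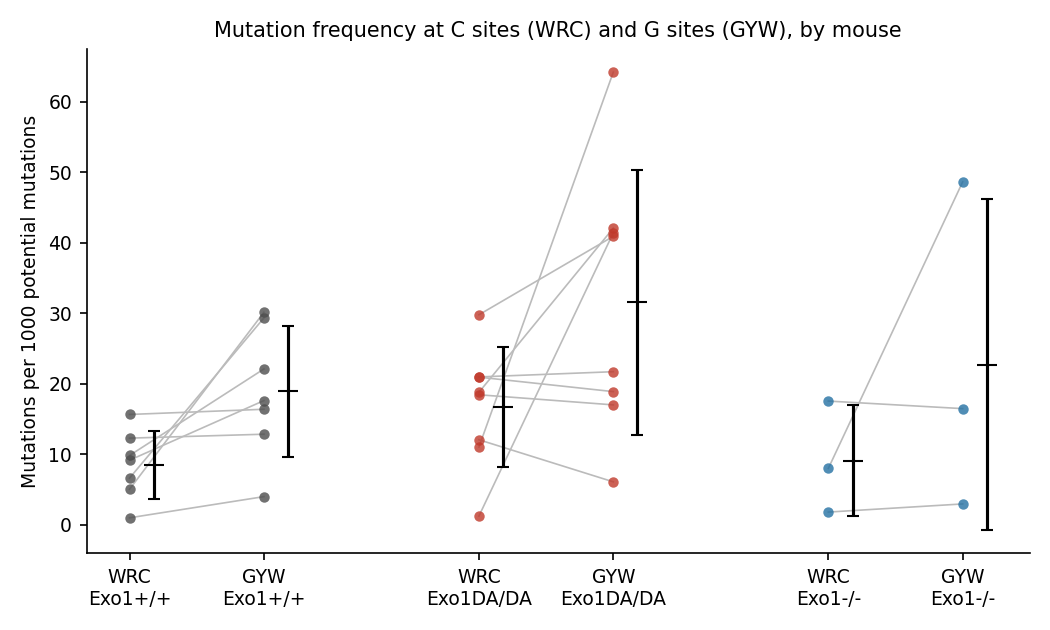
Mutation frequency per 1000 potential mutations at C positions (WRC) and G positions (GYW) in each mouse, with the values of a mouse joined by a line and the mean and SD of each group in black beside the points. The G positions lie above the C positions in 14 of 18 mice, and the range of Exo1DA/DA mice (6.09 to 64.2 at GYW) includes that of Exo1+/+ mice except for its lowest value of 3.99.

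Whether loss of the nuclease or of the whole protein changes mutation at these sites was asked by comparing the genotypes over mice, with p-values adjusted over 10 site classes and 3 comparisons. At C positions the frequency in Exo1+/+ mice ran from 0.986 through a median of 9.15 to 15.6, and in Exo1DA/DA mice from 1.23 through 18.6 to 29.8. It was higher in Exo1DA/DA than in Exo1+/+ in 46 of 56 pairs of mice, by 8.14 (2-sided exact permutation test, p = 0.0432, adjusted p = 0.463), so that the difference did not pass the correction. With each lineage counted 1 time the difference was 6.04 (exact permutation p = 0.0634, adjusted p = 0.821). Nucleotide 180 carried nearly all of the difference of 8.14 over clones, since the difference over the other C positions was 0.265. That value is a description and no independent check, because nucleotide 180 led the C positions in the pooled clones through Exo1DA/DA mice, which held 189.9 of the 230.5 C180T changes. The 3 Exo1-/- mice had 17.5, 7.98 and 1.80, and their difference from Exo1+/+ was 0.603 (exact permutation test, p = 0.85, adjusted p = 0.948). The difference between Exo1DA/DA and Exo1-/- mice at C positions was 7.54 (exact permutation test, p = 0.194, adjusted p = 0.667), and it turned to -0.829 with only the WRC sites followed by Y, which leave out nucleotides 81, 180, 240 and 275.

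At G positions the frequency ran from 3.99 through 17.6 to 30.1 in Exo1+/+ and from 6.09 through 31.3 to 64.2 in Exo1DA/DA mice, and it was higher in Exo1DA/DA in 40 of 56 pairs, by 12.6 (exact permutation test, p = 0.125, adjusted p = 0.623). With each lineage counted 1 time this difference was 5.89 (exact permutation p = 0.0942, adjusted p = 0.821), and that between Exo1DA/DA and Exo1-/- mice was 0.0258 (exact permutation p = 0.982). Counted so, the means were 10.8 in the Exo1+/+ group, 16.7 in the Exo1DA/DA group and 16.7 in the Exo1-/- group. The 3 Exo1-/- mice had 16.5, 48.6 and 2.95, and neither their difference of 3.77 from Exo1+/+ (exact permutation p = 0.683) nor that of 8.84 between Exo1DA/DA and Exo1-/- mice (exact permutation p = 0.558) passed the test. Without Exo1-/- mouse 294 the Exo1-/- mean lay below that of Exo1+/+, by a difference of -9.20. The 3 comparisons share groups of mice and are not independent of each other.

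The balance of C and G positions was compared as the log2 ratio of their frequencies, with 0.5 mutations added to each. It was -1.26 ± 0.98 in the Exo1+/+ group (SD, n = 7), -0.97 ± 1.85 in the Exo1DA/DA group (SD, n = 8) and -1.07 ± 1.38 in the Exo1-/- group (SD, n = 3). These means differed by 0.29 or less on the log2 scale, within the spread between mice, with exact permutation p-values of 0.724, 0.833 and 0.848. Leaving out 1 mouse at a time moved the difference between Exo1DA/DA and Exo1+/+ over 0.01 to 0.83, that between Exo1-/- and Exo1+/+ over -0.39 to 0.95 and that between Exo1DA/DA and Exo1-/- over -0.67 to 0.67.

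Both motifs stood above the sites of the same base that carry no AID hotspot. The log2 ratio of WRC to C sites outside hotspots was 1.36 ± 1.32 in the Exo1+/+ group, 1.71 ± 0.71 in the Exo1DA/DA group and 1.24 ± 0.77 in the Exo1-/- group (SD, n = 7, 8 and 3), and it was above 0 in 17 of 18 mice. The log2 ratio of GYW to G sites outside hotspots was 1.68 ± 1.19, 2.93 ± 2.31 and 1.99 ± 1.68, and it also was above 0 in 17 of 18 mice. The exception was in both cases Exo1+/+ mouse 290, with -1.44 at WRC and -0.58 at GYW, a mouse in which 7.26% of clones had any of the 19 positions changed. No genotype difference in either ratio passed the test. The smallest exact permutation p was 0.228, for GYW in Exo1DA/DA against Exo1+/+ mice, with an adjusted p of 0.85.

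C positions changed nearly always to T, and G positions more often by transversion. Summed over all mice, 678.7 of 703.4 mutations at C positions were C-to-T, 24.7 were C-to-A and 0.067 were C-to-G. Of 1308.1 mutations at G positions, 1041.9 were G-to-A, 181.7 were G-to-T and 84.5 were G-to-C. The transition share of a mouse at C positions was 95.2% ± 7.91 in the Exo1+/+ group, 99.9% ± 0.171 in the Exo1DA/DA group and 80.3% ± 34.1 in the Exo1-/- group (SD, n = 7, 8 and 3). At G positions it was 71.3% ± 24.1, 78.4% ± 22.9 and 88.9% ± 16.2. It was higher at C than at G positions in 15 of 18 mice, in 14 when each lineage was counted 1 time, in 12 when sequences shared between mice were removed and in 11 without nucleotides 180 and 170. C sites outside hotspots exceeded G sites outside hotspots in this share in 17 of 18 mice, and the C exceeded the G positions of WGCW in 12.

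**Figure D2:**
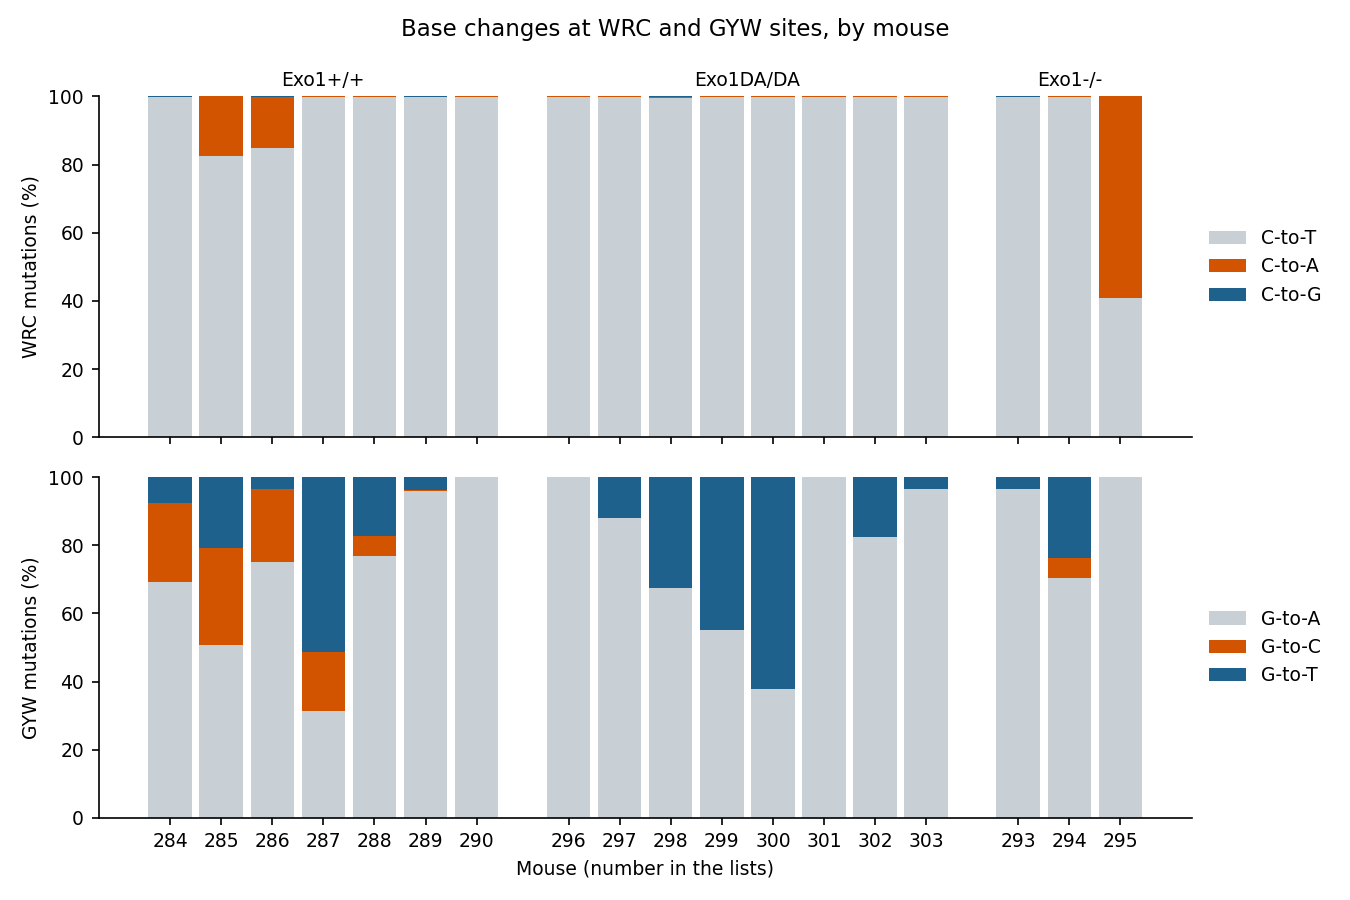
Share of each base change among the mutations at C positions (WRC, upper panel) and G positions (GYW, lower panel), as percent, in each mouse by its number in the lists. C-to-T makes up 99% or more in 15 of 18 mice in the upper panel, whereas G-to-A reaches 99% in 4 of 18 in the lower panel, and G-to-C reaches 1% in 5 of 7 Exo1+/+ mice and in Exo1-/- mouse 294 but in 0 of 8 Exo1DA/DA mice.

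The C-to-A changes came from a few clones. A transversion amounted to 1 clone or more at 4 combinations of mouse and C position, which were nucleotides 19 (C19A, 11.05 clones) and 223 (7.32 clones) in Exo1+/+ mouse 285, nucleotide 275 in Exo1+/+ mouse 286 (3.00 clones) and nucleotide 255 in Exo1-/- mouse 295 (3.00 clones). Mouse 295 had only 5.08 mutations at C positions, and those 3 clones brought its transition share to 40.9%. Without it the difference between Exo1-/- and Exo1+/+ mice turned from -15.0 to 4.71 percentage points. With each lineage counted 1 time and all mice kept, the means were 89.1% in Exo1-/- and 91.4% in Exo1+/+ mice. At the 4 TAC codons, where a transversion stops translation, 0.051 of 360.6 mutations were transversions. At the other 7 C positions transversions were 24.7 of 342.8.

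The kinds of transversion at G positions are given as a description, since they were picked out after their values were seen. G-to-C made up a mean of 13.8% of the mutations at G positions in Exo1+/+ mice (SD 11.6, n = 7), with a lowest value of 0%, a median of 17.3% and a highest value of 28.5%. In Exo1DA/DA mice the mean was 0.00356% and the highest 0.0221% (n = 8), and in the 3 Exo1-/- mice the values were 0.00357%, 5.77% and 0%. A level of 1% was reached by 5 of 7 wild type mice, by 0 of 8 with the nuclease-dead protein and by 1 of 3 without EXO1. With each lineage counted 1 time the means were 11.3%, 0.00133% and 1.91%, and with sequences shared between mice removed they were 22.4%, 0.000581% and 3.24%. G-to-T made up 14.9% ± 17.7 in the Exo1+/+ group, 21.6% ± 22.9 in the Exo1DA/DA group and 9.14% ± 12.9 in the Exo1-/- group (SD), and reached 1% in 6 of 7, 6 of 8 and 2 of 3 mice. At the 72 other G sites of the lists, G-to-C made up 21.5% ± 7.69 in the Exo1+/+ group, 8.82% ± 8.51 in the Exo1DA/DA group and 16.2% ± 6.56 in the Exo1-/- group (SD), so that it was present in Exo1DA/DA mice elsewhere. These shares of single base changes were not compared by a test.

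The G-to-C clones lay at few positions. G189C was found in 3 Exo1+/+ mice, in 6.00 clones of mouse 284, 35.0 of mouse 285 and 2.0 of mouse 287, and it made up 97.7% of all changes at nucleotide 189 in Exo1+/+. In Exo1DA/DA mice the same nucleotide changed to A in 21.0 clones, and G189C was not drawn. G177C was found in 15.0 clones of Exo1+/+ mice, and G170C in 7.01 clones of Exo1+/+ and in 17.1 clones of Exo1-/- mice. The transition share itself did not differ between genotypes beyond the spread between mice. At G positions Exo1DA/DA exceeded Exo1+/+ mice by 7.11 percentage points (exact permutation test, p = 0.56, adjusted p = 0.827). Exo1-/- mice exceeded Exo1+/+ by 17.6 (exact permutation p = 0.333, adjusted p = 0.827). By lineage, the shares here averaged 68.5% in the wild type, 79.7% with the nuclease-dead protein and 85.1% without EXO1 (SD 24.7, 18.8 and 18.4). At C positions the difference between Exo1DA/DA and Exo1+/+ mice was 4.61 percentage points (exact permutation test, p = 0.192, adjusted p = 0.7). With each lineage counted 1 time the means were 99.8% in Exo1DA/DA and 91.4% in Exo1+/+ mice. With only the WRC sites followed by Y, which leave out nucleotides 81, 180, 240 and 275, the difference over clones turned to -9.20. In Exo1DA/DA mouse 301, C180T was 106.0 of the 106.1 mutations at C positions. Its share at the remaining sites rests on a small part of 1 mutation, with C236A at 0.073.

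The positions differed widely in how often they were mutated. Values are the percent of the mutated clones of a mouse with a change there, and a value below 1 clone arises where only some of the sequences drawn for a clone carry the change. Nucleotides 170 and 177, both G, reached 1% in 17 of 18 mice, and nucleotide 180, a C, in 14. Nucleotide 70, a G, stayed under 1% in all mice, with a highest value of 0.0143% in Exo1DA/DA mouse 300. A count of 0 there would allow a share of up to 14.3% in that mouse, the one with the fewest clones, and up to 0.926% in Exo1+/+ mouse 285, the one with the most. Nucleotide 275, a C, reached 1% in 1 mouse. In all, 6 members reached 1% in 9 mice or more.

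**Figure D3:**
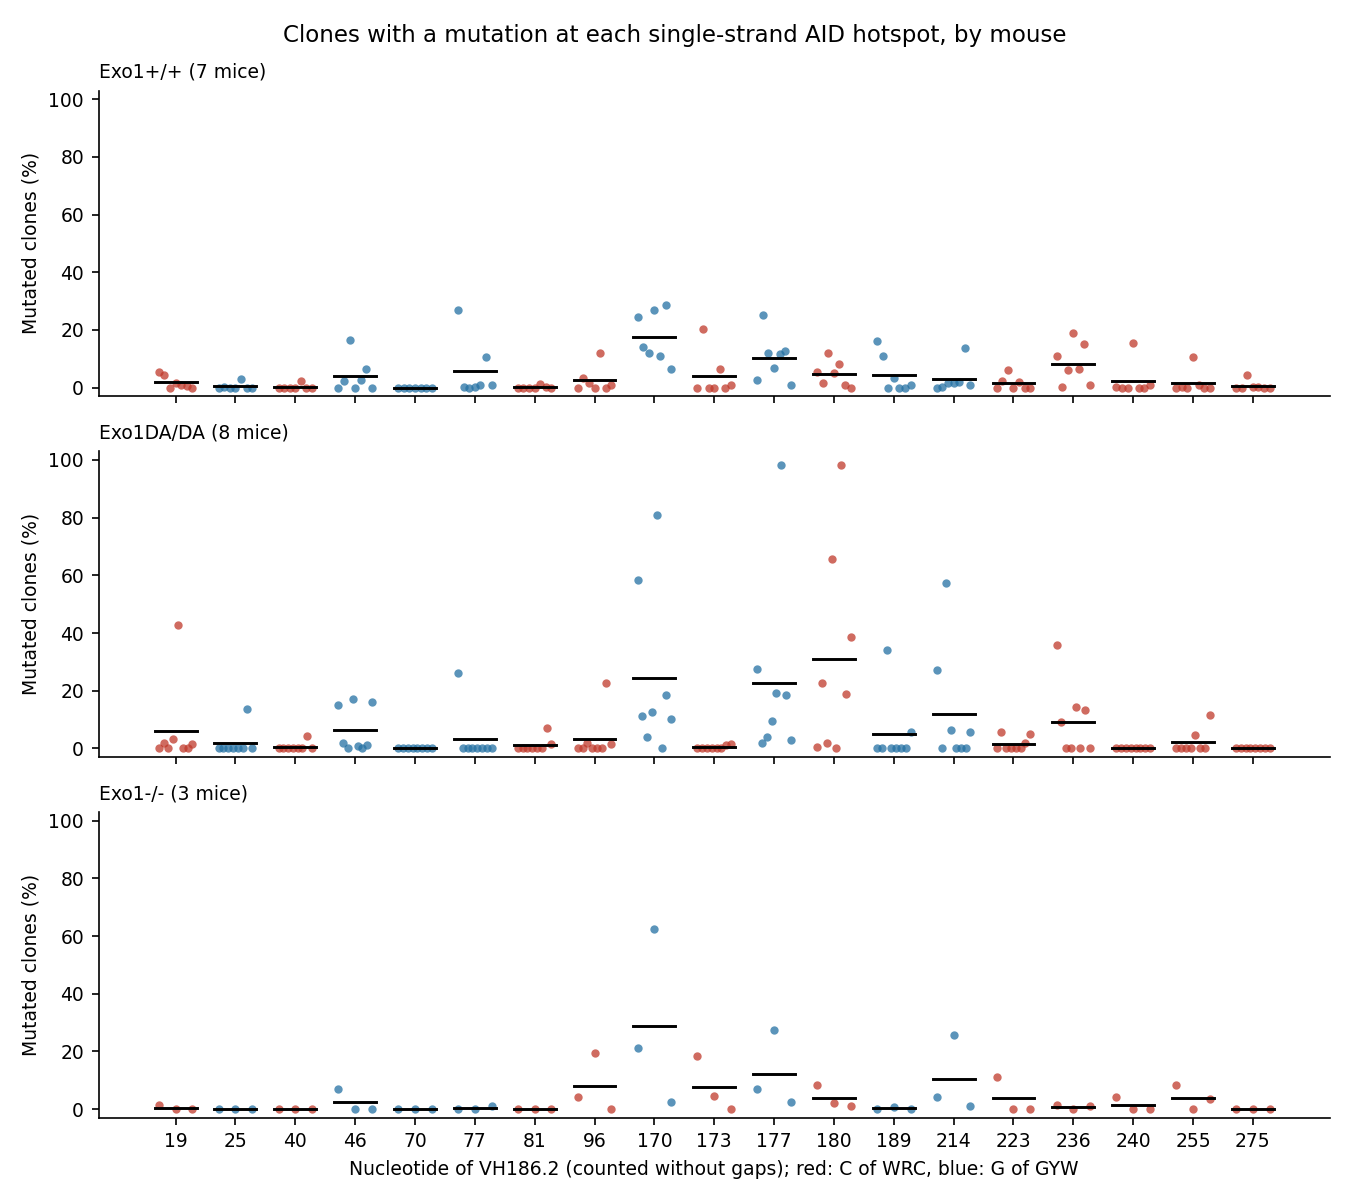
Percent of the mutated clones of each mouse with a mutation at each of the 19 positions, in 3 panels by genotype, with C positions of WRC in red, G positions of GYW in blue and the mean of the mice as a black bar. Nucleotide 170 has the highest mean of the G positions in each panel, nucleotide 180 has a mean of 30.8% in Exo1DA/DA against 4.74% in Exo1+/+ mice, and nucleotide 70 stays under 1% in all mice.

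All 19 positions were tested together with the other positions of the lists. Between Exo1DA/DA and Exo1+/+ mice 0 of 276 positions passed an adjusted p under 0.05 in the exact permutation test, and 14 (5.07%) had an unadjusted p under 0.05. Of these, 4 (1.45%) were higher in Exo1DA/DA, with 1 member (nucleotide 180) among them, and 10 (3.62%) were lower, with 0 members. Between Exo1-/- and Exo1+/+ mice 0 positions passed and 3 (1.09%) had an unadjusted p under 0.05, with 0 members among them. Between Exo1DA/DA and Exo1-/- mice 0 passed and 1 (0.362%) had an unadjusted p under 0.05, with 0 members. The limma fit on log2(percent + 1) also gave 0 positions in each comparison, with 6, 9 and 9 positions at an unadjusted p under 0.05 and 0 members among them. The mean was higher in Exo1DA/DA than in Exo1+/+ mice at 15 of the 19 positions, 8 C and 7 G, compared with 46% of all positions and with 85 of 146 G:C positions. On the log2(percent + 1) scale of limma it was higher at 10 and lower at 9 of the 19, compared with 41.3% higher of all positions. The median difference was 0.73 percentage points over the members and -0.00298 over all positions. In Exo1-/- against Exo1+/+ mice the mean was higher at 8 of 19 positions, compared with 35.5% of all, and in Exo1DA/DA against Exo1-/- mice at 13 of 19, compared with 60.9% of all.

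The 4 members that lie closest together were nucleotides 170, 173, 177 and 180, at the end of CDR2 and the start of framework 3, within 11 nucleotides. They are 2 copies of GTAC, in each of which the G and the C belong to overlapping GYW and WRC triplets on opposite strands. They are shown with 9 nucleotides on each side and were singled out after it was seen that many mutations of the members fell here, so that their share is a description without a test.
Nucleotides 161 to 189: atagtggtgGTACtaaGTACaatgagaag

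These 4 positions are 21.1% of the sites. They took 51.6% ± 12.0 of the mutations at the 19 positions in the Exo1+/+ group, 57.2% ± 26.2 in the Exo1DA/DA group and 56.4% ± 11.2 in the Exo1-/- group (SD, n = 7, 8 and 3). Their share exceeded their share of the sites in 17 of 18 mice, and the most mutated of the 19 positions was among them in 12 of 18 mice. The exception was Exo1DA/DA mouse 298 with 9.68%, where nucleotides 189 and 214 were changed together in 30.0% of the clones. A mean of 26.5% of clones had at least 1 of the 4 positions changed in the Exo1+/+ group, 55.0% in the Exo1DA/DA group and 36.2% in the Exo1-/- group. These means count clones and not lineages, and the highest Exo1DA/DA value of 98.1% was that of mouse 301.

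**Figure D4:**
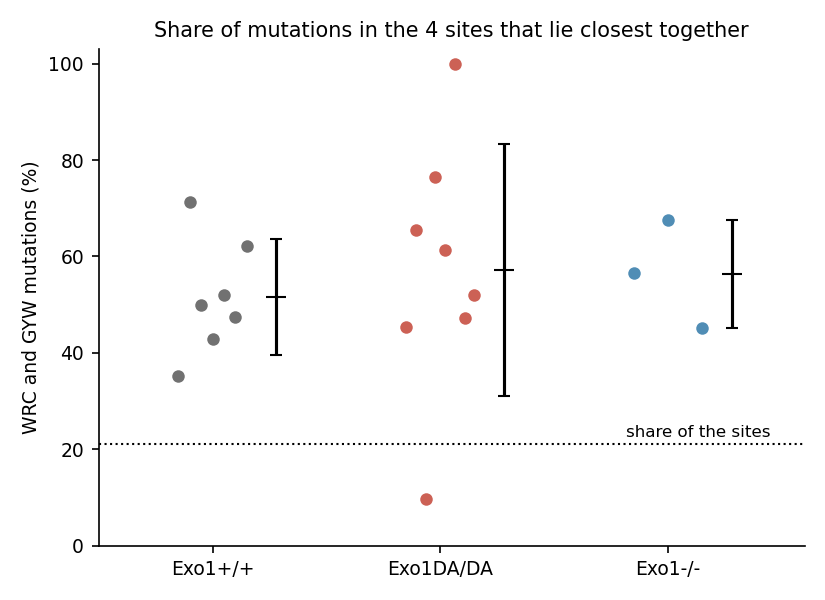
Percent of the mutations at the 19 positions that fell on nucleotides 170, 173, 177 and 180, in each mouse by genotype, with the mean and SD in black beside the points and the share of the sites (21.1%) as a dotted line. Points lie above the line in 17 of 18 mice, and Exo1DA/DA mouse 298 lies below it at 9.68%.

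Nucleotide 170, the second base of the GGT codon 57 in CDR2, was the most mutated G position in each genotype. Among Exo1+/+ mice the lowest value was 6.38% of clones, the median 14.0% and the highest 28.6%, with a mean of 17.6% ± 8.82 (SD, n = 7). In Exo1DA/DA mice the values ran from 0.000926% through 11.8% to 80.8%, with a mean of 24.4% ± 29.1 (SD, n = 8), and in the 3 Exo1-/- mice they were 21.2%, 62.5% and 2.37%. The Exo1DA/DA range covered that of the other groups. The differences of 6.81 percentage points for Exo1DA/DA (exact permutation test, p = 0.58, adjusted p = 0.921) and 11.04 for Exo1-/- against Exo1+/+ (exact permutation p = 0.467, adjusted p = 0.976) did not pass the test. With each lineage counted 1 time the first was 1.23. Without Exo1DA/DA mouse 300 it turned to -1.24, and without Exo1-/- mouse 294 the second turned to -5.87. Of all changes at nucleotide 170, 65.1% were G170A, 29.9% G170T and 5.0% G170C, each of which replaces the amino acid. It was the member with the largest number of G-to-T changes, which reached 1% of clones in 14 mice.

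Nucleotide 180, the last base of the TAC codon 60, was the most mutated C position in Exo1DA/DA mice. Exo1+/+ mice had 0.00637% in the lowest, 5.14% in the median and 12.1% in the highest mouse. Exo1DA/DA mice had 0.00952% in the lowest, 20.8% in the median and 98.1% in the highest, and 5 of the 8 lay above the highest Exo1+/+ mouse. The 3 Exo1-/- mice had 8.47%, 1.97% and 1.19%, within the Exo1+/+ range. The means were 4.74% ± 4.36, 30.8% ± 35.3 and 3.87% ± 4.0 (SD, n = 7, 8 and 3). The difference of 26.1 percentage points between Exo1DA/DA and Exo1+/+ mice had an exact permutation p of 0.0463 and an adjusted p of 0.857, and was seen in 40 of 56 pairs of mice. Without Exo1DA/DA mouse 301, whose 98.1% (95% Wilson interval 93.5% to 99.5%, counting error only) came from few lineages, it was 16.5 (exact permutation p = 0.0868), and with each lineage counted 1 time 14.6 (exact permutation p = 0.0774). Nearly all changes here were C180T (99.99%), which is silent.

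Nucleotide 177, a G and the last base of the AAG codon 59, ran from 0.797% through 11.5% to 25.2% in Exo1+/+ and from 1.75% through 13.9% to 98.1% in Exo1DA/DA mice, and the 3 Exo1-/- mice had 7.05%, 27.5% and 2.34%. The highest Exo1DA/DA value was again that of mouse 301, in which nucleotides 177 and 180 were changed together in 98.1% of clones. The mean difference of 12.4 percentage points between Exo1DA/DA and Exo1+/+ mice (exact permutation p = 0.394, adjusted p = 0.9) was 1.59 without that mouse and 4.72 with each lineage counted 1 time. G177A, which is silent, made up 94.6% of the changes.

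Nucleotide 173, a C and the second base of the ACT codon 58, was changed in fewer mice. A level of 1% was reached by 2 of 7 wild type mice, by 2 of 8 with the nuclease-dead protein and by 2 of 3 without EXO1. Exo1+/+ mouse 285 stood at 20.2%, the next Exo1+/+ mouse at 6.44% and the median at 0.0027%, whereas the highest Exo1DA/DA mouse had 1.45%. The Exo1-/- mice had 18.3%, 4.72% and 0%, where a count of 0 among 85.5 clones allows up to 3.51%. The means of 3.92% in Exo1+/+ and 0.333% in Exo1DA/DA mice had a difference that did not pass the test (exact permutation p = 0.316, adjusted p = 0.89), and with each lineage counted 1 time the difference changed sign, to 0.0231 percentage points. In mouse 285 nucleotides 173 and 177 were changed together in 20.2% of clones.

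Outside these 4 positions, nucleotide 236 was the most mutated C position in Exo1+/+ mice. It is the second base of the GCC codon 79 in framework 3. Exo1+/+ mice ran from 0.311% through 6.45% to 18.8% with a mean of 8.34% ± 6.98 (SD, n = 7), and Exo1DA/DA mice from 0.00579% through 4.70% to 35.7% with a mean of 9.10% ± 12.4 (SD, n = 8). The Exo1-/- mice had 1.42%, 0.00393% and 1.17%, a mean of 0.866%, and their difference from Exo1+/+ was -7.48 percentage points (exact permutation p = 0.133, adjusted p = 0.976), or -2.26 with each lineage counted 1 time. Its changes were C236T in 99.9%, a replacement.

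Nucleotide 96, the last base of the TAC codon 32 in CDR1, was the most mutated C position in Exo1-/- mice, with 4.24%, 19.6% and 0%. Exo1+/+ mice ran from 0.0034% through 0.797% to 12.0%, and Exo1DA/DA mice from 0% through 0.00889% to 22.6%, so that single mice set the means of 7.94%, 2.53% and 3.26%. Without Exo1-/- mouse 294 the difference of 5.42 percentage points between Exo1-/- and Exo1+/+ (exact permutation p = 0.267, adjusted p = 0.976) turned to -0.409, and with each lineage counted 1 time it was -0.512. Nucleotide 77, a G and the second base of the GGC codon 26 in CDR1, had 27.1% in Exo1+/+ mouse 284, 10.7% in mouse 289 and under 1% in the other 5, and 26.2% in Exo1DA/DA mouse 296 with no other Exo1DA/DA mouse above 0.0238%. Its mean was 5.74% in the Exo1+/+ group, 3.28% in the Exo1DA/DA group and 0.39% in the Exo1-/- group, and neither difference from Exo1+/+ passed the test (exact permutation p = 0.402 and 0.383). The difference of -2.46 percentage points for Exo1DA/DA turned to 3.11 with each lineage counted 1 time and to 1.09 without Exo1+/+ mouse 284, and with shared sequences removed it was -0.0084.

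The remaining 12 positions are given by their means over mice. Among G positions, nucleotide 214 had 2.82% in the Exo1+/+ group, 12.1% in the Exo1DA/DA group and 10.4% in the Exo1-/- group, with a highest value of 57.3% in Exo1DA/DA mouse 298. Nucleotide 46 had 3.98%, 6.51% and 2.35%, nucleotide 189 had 4.46%, 4.98% and 0.267%, and nucleotide 25 had 0.463%, 1.72% and 0.011%. Nucleotide 70 had 0.00143%, 0.00423% and 0.0018%. Among C positions, the means of nucleotides 19, 40, 81, 223, 240, 255 and 275 lay between 0.204% and 2.32% in the Exo1+/+ group, between 0.00615% and 6.14% in the Exo1DA/DA group and between 0.00227% and 3.99% in the Exo1-/- group. The Exo1DA/DA mean at nucleotide 19 came from mouse 300 with 42.8%. That mean was 2.84% with each lineage counted 1 time and 0.0562% with shared sequences removed. At nucleotide 214 the means were 1.81%, 6.53% and 5.72% by lineage, in the order above. With shared sequences removed they were 0.385%, 9.32% and 8.86%. In Exo1-/- mice nucleotides 223 and 255 had means of 3.77% and 3.99% over clones, and of 0.41% and 0.745% by lineage.

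The mean percent of clones ranged widely among positions with the same triplet. The triplet TAC occurs at 5 C positions, which are shown with their neighbours because 4 of them share the codon, the silent transition and the triplet, with capitals on the triplet.
Nucleotide 81: tggcTACaccttc
Nucleotide 96: cagcTACtggatg
Nucleotide 173: gtggTACtaagta
Nucleotide 180: taagTACaatgag
Nucleotide 240: agccTACatgcag

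Their means over the mice of a genotype ran from 0.204% at nucleotide 81 to 4.74% at nucleotide 180 in Exo1+/+, from 0.00615% at nucleotide 240 to 30.8% at nucleotide 180 in Exo1DA/DA, and from 0.00849% at nucleotide 81 to 7.94% at nucleotide 96 in Exo1-/- mice. Nucleotide 81 was at 1.36% in Exo1+/+ mouse 288 and at 0.0372% or less in the other Exo1+/+ mice. Nucleotide 240 was at 15.3% in Exo1+/+ mouse 287 and did not exceed 0.0122% in any Exo1DA/DA mouse. The triplet AGC occurs at nucleotides 40, 236 and 255, with Exo1+/+ means of 0.335%, 8.34% and 1.68%.

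The triplet GCT occurs at 4 G positions, 3 of which are the first base of an alanine codon GCT in framework 1. They are shown for the same comparison.
Nucleotide 25: cctgggGCTgagc
Nucleotide 46: cctgggGCTtcag
Nucleotide 70: tgcaagGCTtctg
Nucleotide 77: cttctgGCTacac

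Nucleotides 25 and 46 share the 6 bases before the triplet and reached 1% in 2 and 10 mice. Nucleotide 70, whose 5′ neighbours differ, reached 1% in 0 of 18 mice, and nucleotide 77 in 4. The triplet GTA occurs at nucleotides 170, 177 and 214, with Exo1+/+ means of 17.6%, 10.3% and 2.82%. These positions are single sites in a single gene, and no test across them was made.

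The silent shares follow as a description without a test. Of the mutations at C positions, a mean of 36.7% ± 21.2 was silent in the Exo1+/+ group, 64.8% ± 39.9 in the Exo1DA/DA group and 48.8% ± 31.1 in the Exo1-/- group (SD, n = 7, 8 and 3). At G positions silent changes were 20.6% ± 12.7, 32.2% ± 28.5 and 25.1% ± 7.67 of the mutations. Changes to a stop codon summed to 0.023 mutations per draw at C positions in the Exo1+/+ group, 0.021 in the Exo1DA/DA group and 0.007 in the Exo1-/- group, and to 0 at G positions, where no single change makes a stop codon.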

How the data were processed

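The authors amplified VH186.2 from spleen cDNA by nested PCR, sequenced it in paired reads, and collapsed the reads by molecular identifier. CDR3 clones came from IMGT/HighV-QUEST, and each of 1000 iterations took a single sequence of every clone. A line of the deposited lists stands for 1 mutation of a drawn sequence and gives no measured level. The number used, which has no standard unit, is the nucleotide position as deposited by the authors. Read depth and program versions are not given in the sources used here. Unmutated sequences have no line, so all percentages refer to mutated clones. Only the list of a genotype names the group. Its dataset numbers were taken as mice, since 7, 8 and 3 of them match the mice in the labels, and nothing further says that mice were independent, so p-values measure the spread between these samples.

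A sequence was weighted by its number of iterations over 1000. Positions with the marks WRC and GYW were used with no filter on low values. The members, lists and comparisons were chosen with earlier results of these data known. Genotypes were compared over mice by 2-sided exact permutation tests over all 6435, 120 or 165 divisions, whose smallest p-values are 0.000311, 0.0167 and 0.0121. P-values were adjusted by Benjamini-Hochberg over 30 frequencies, 30 transition shares, 9 ratios of C to G, 12 ratios to sites outside hotspots and 276 positions per comparison. Within a mouse, sequences carrying 4 or more mutations were joined into a lineage where the Jaccard index of their mutations was 0.7 or higher. Sequences counted as shared carried 6 or more and reached this index with a sequence of another mouse. Intervals are 95% Wilson intervals on clones rounded to whole numbers, a count of 0 allows 3 clones, and both cover counting error only. Values were given in full for the most mutated position of each motif in each genotype and for the largest rise and fall in each mutant. Other positions and comparisons of base changes were chosen after their values were seen. Code was tested on simulated lists. Python 3.11.15, NumPy 2.4.6, SciPy 1.17.1, pandas 2.3.3, matplotlib 3.10.9, R 4.3.3 and limma 3.58.1 were used. Alternatives changed the iterations, lineages, shared sequences, mice, ranks, positions, motif, pseudocount, filter and test. Genome coordinates were not used here, since the lists name no build, and the gene symbol is that of the RefSeq gene table.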

Additional observations from a re-analysis of the deposited data

Results flagged for a closer look

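Among 28 groups of mice examined for a value far from the others, 9 held one, where chance gives about 5% per group if values are normally distributed. The rate for percents as uneven as these was not measured. At C positions the transition share of Exo1DA/DA mouse 298 was 99.5%, below the 99.8% of the next mouse. This rests on 0.008 C-to-A and 0.003 C-to-G among 2.03 mutations per draw, far below 1 clone. The log2 ratio of WRC to C sites outside hotspots was -1.44 in Exo1+/+ mouse 290, against 1.21 in the next. At nucleotide 77, Exo1+/+ mouse 284 stood at 27.1% of clones and Exo1DA/DA mouse 296 at 26.2%. At nucleotide 96, Exo1+/+ mouse 288 had 12.0% and Exo1DA/DA mouse 302 had 22.6%. At nucleotide 173, Exo1+/+ mouse 285 had 20.2%. At nucleotide 177, Exo1DA/DA mouse 301 had 98.1%, against 27.4% in the next, and at nucleotide 236 Exo1DA/DA mouse 296 had 35.7%.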

How the results depend on the processing

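No frequency, transition share, ratio or position passed its threshold in the reported setting or under any alternative, so the alternatives bear on signs and sizes only, and the cause of each change of sign was not tested. No paired analysis was possible because the lists carry no mouse number of the labels. With each lineage counted 1 time, the log2 ratio of WRC to C sites outside hotspots turned to 0.70 for Exo1-/- minus Exo1+/+ and to -0.032 for Exo1DA/DA minus Exo1-/-. Positions turned to 3.11 (nucleotide 77) and 0.0231 (nucleotide 173) for Exo1DA/DA minus Exo1+/+, to -0.512 (nucleotide 96) and 0.673 (nucleotide 180) for Exo1-/- minus Exo1+/+, and to 0.586 (nucleotide 96) and -1.27 (nucleotide 177) for Exo1DA/DA minus Exo1-/-. With shared sequences removed, the log2 ratio of WRC to GYW for Exo1DA/DA minus Exo1-/- was -0.38, that of WRC to C outside for Exo1-/- minus Exo1+/+ 0.027, nucleotide 96 for Exo1DA/DA minus Exo1+/+ -0.000234 and nucleotide 180 for Exo1-/- minus Exo1+/+ 0.292. By mean ranks, Exo1-/- minus Exo1+/+ was -0.238 for the GYW frequency and 0.238 for the WRC transition share.

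Nucleotide 180 was the most mutated C position of the pooled clones through Exo1DA/DA mice (mean 30.8% against 4.74% and 3.87%), so that leaving it out lowers that group by construction and is no independent check on signs. Without nucleotides 180 and 170, the WRC frequency was -0.688 for Exo1DA/DA minus Exo1-/-, the GYW frequency -0.948 for Exo1-/- minus Exo1+/+ and the WRC transition share -5.28 for Exo1DA/DA minus Exo1+/+. The log2 ratio of WRC to GYW was -1.43 and -1.71, and that of WRC to C outside -1.30 and -1.21, for Exo1DA/DA minus Exo1+/+ and minus Exo1-/-. With WRCY and RGYW sites only, which also leave out nucleotide 180, these 4 ratios were -1.06, -1.60, -1.14 and -1.21, the WRC to C outside ratio for Exo1-/- minus Exo1+/+ was 0.067, the WRC frequency for Exo1DA/DA minus Exo1-/- -0.829 and the WRC transition share for Exo1DA/DA minus Exo1+/+ -9.20. The transition shares of -5.28 and -9.20 include Exo1DA/DA mouse 301, where C180T was 106.0 of 106.1 mutations at C positions. Without nucleotide 180 the share of that mouse rests on a small part of 1 mutation. In limma, on log2(percent + 1), Exo1DA/DA minus Exo1+/+ was -0.21, -0.35 and -0.62 at nucleotides 96, 170 and 236.

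Leaving out each mouse in turn gave, for Exo1DA/DA minus Exo1+/+, Exo1-/- minus Exo1+/+ and Exo1DA/DA minus Exo1-/- in this order, 6.27 to 10.3, -3.61 to 4.26 and 3.89 to 11.8 for the WRC frequency, and 7.95 to 16.2, -9.20 to 13.6 and -1.02 to 21.8 for the GYW frequency. Transition shares ranged over 2.49 to 5.40, -24.8 to 4.71 and -0.101 to 29.4 at WRC, and over 0.462 to 12.9, 10.99 to 26.9 and -19.8 to -4.73 at GYW. Ratios of WRC to GYW ranged over 0.01 to 0.83, -0.39 to 0.95 and -0.67 to 0.67, of WRC to C outside over -0.12 to 0.55, -0.59 to 0.27 and 0.08 to 0.85, and of GYW to G outside over -0.38 to 1.24 for Exo1-/- minus Exo1+/+, 0.52 to 1.58 for Exo1DA/DA minus Exo1+/+ and -0.00149 to 1.62 for Exo1DA/DA minus Exo1-/-. The percent of clones changed sign in some of these fits. Exo1DA/DA minus Exo1+/+ ranged over -5.73 to 1.09 at nucleotide 77, -2.03 to 2.31 at 96, -1.24 to 10.3 at 170 and -3.04 to 2.50 at 236. Exo1-/- minus Exo1+/+ ranged over -0.409 to 9.39 at 96, -5.87 to 24.2 at 170, -1.56 to 7.60 at 173, -5.57 to 7.01 at 177 and -3.16 to 0.476 at 180. Exo1DA/DA minus Exo1-/- ranged over -0.382 to 3.36 at 77, -8.66 to 1.14 at 96, -17.4 to 12.7 at 170 and -0.446 to 17.9 at 177. The count of mice with a higher transition share at C than at G positions, a comparison added after seeing the data, was 14 to 15 in these fits and 11 to 15 over all alternatives. Clone numbers of 21.0 to 323.9 per mouse limit what a low percent can show.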
